A study of Homo sapiens with 9 samples.

Results

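The genes of arginine synthesis and use followed here were *ASS1*, *ASL*, *ARG2*, *OAT*, *SLC7A1* and *NAGS*, 6 of the 28395 genes of the count table. They were taken by name, as the rows whose NCBI gene identifier carries one of these symbols, and no measured value entered their choice by the rule. The study had nevertheless singled out *ASS1* and the enzymes around it in these lines, so counts over these 6 genes are not independent evidence of a direction. RNA was sequenced from 3 human cell lines grown in Plasmax, a culture medium composed after human plasma: HK2, from normal kidney proximal tubule, 786-O, from a primary clear cell renal cell carcinoma (ccRCC), and 786-M1A, which was derived from 786-O as a metastatic line. Each line gave 3 libraries from separate dishes, untreated, and the labels name no genotype or engineered allele. A single line stands for each state and HK2 and 786-O come from different people, so the disease state, the donor and the history of the line cannot be told apart.

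Arginine is made from citrulline in the epithelium of the proximal tubule, which supplies much of the arginine of the circulation. Argininosuccinate synthase (*ASS1*) joins citrulline to aspartate, and argininosuccinate lyase (*ASL*) splits the product into arginine and fumarate. Inside the cell arginine is cleaved to ornithine and urea by arginases, of which *ARG2* encodes the mitochondrial form, and ornithine aminotransferase (*OAT*) links ornithine to glutamate and proline. *SLC7A1* encodes CAT-1, a carrier that brings arginine into the cell, and *NAGS* makes N-acetylglutamate, the activator of the first enzyme of the urea cycle.

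Libraries held between 30212291 and 45362428 counts. Levels are given in CPM, the count scaled to a common library total after TMM correction, and a floor of 3 counts came to 0.0661 to 0.0993 CPM on the uncorrected totals. Differences between lines are log2 fold changes (log2FC) with their standard error (SE) from edgeR's quasi-likelihood test, and the FDR is the p-value after Benjamini-Hochberg adjustment across 12695 tested genes, called under 0.05. In HK2, 8 of 13 proximal tubule markers were above the floor in every library, 5 were at or under it in every library, and *LRP2*, *SLC5A1*, *SLC22A6* and *SLC22A8* had 0 counts throughout. The summed level of these markers was between 278 and 283 CPM in HK2, between 353 and 371 CPM in 786-O and between 283 and 310 CPM in 786-M1A, but its members went different ways. *ANPEP* averaged 1.75, 112 and 19.8 CPM in this order of lines, *GGT1* 108, 80.6 and 88.3 CPM and *PAX8* 167, 165 and 182 CPM. Of 7 ccRCC markers, 6 were above the floor in every library of all 3 lines, HK2 included, and *CA9* had at most 3 counts in any library. Their sums were from 1601 to 1687 CPM in HK2, from 5509 to 5624 CPM in 786-O and from 7542 to 7782 CPM in 786-M1A. A further planned ccRCC marker, *NDUFA4L2*, was not found by symbol in the count table and could not be assessed. *VIM* made up most of these ccRCC sums, with means of 1400, 4851 and 6545 CPM in HK2, 786-O and 786-M1A. *VEGFA* (19.4, 163 and 330 CPM), *CD70* (61.3, 334 and 478 CPM) and *EGLN3* also rose in this order of lines. *PAX8*, given above, and *ANGPTL4* (2.58, 3.12 and 3.25 CPM) differed far less. Markers of other nephron segments summed to at most 0.149 CPM and those of endothelium to at most 1.11 CPM, and of 5 immune markers 1, *CD68*, was above the floor. The 5 fibroblast markers summed to between 77.2 and 86.4 CPM in HK2, between 279 and 348 CPM in 786-O and between 302 and 306 CPM in 786-M1A, without moving together. *COL1A1* averaged 53.8, 292 and 16.5 CPM in the 3 lines, *PDGFRB* 5.00, 2.60 and 282 CPM and *LUM* 22.5, 14.6 and 5.48 CPM, while *COL1A2* and *DCN* stayed at or below 0.151 CPM. The part of these markers in the differences below was not tested.

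*ASS1* (NCBI gene 445, chromosome 9 of GRCh38, 130444961 to 130501274, plus strand) encodes the enzyme that commits citrulline and aspartate to arginine. It had 10.5, 11.0 and 10.6 CPM in the HK2 libraries, from 327 to 490 counts. In 786-O it had 0.271, 0.266 and 0.544 CPM, from 10 to 23 counts, and in 786-M1A 6.81, 8.58 and 8.20 CPM, from 246 to 329 counts. The 3 lines did not overlap: HK2 was highest, 786-M1A lay below it, and 786-O was far below both although above the floor in every library. Summed over its libraries 786-O had 45 counts, which is 0.363 CPM with an exact Poisson 95% interval of 0.265 to 0.486 that covers counting error only.

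HK2 thus averaged 10.7 ± 0.272 CPM (SD, n = 3), 786-O 0.360 ± 0.159 CPM and 786-M1A 7.86 ± 0.933 CPM. In RNA from a whole dish, fewer cells with the mRNA and less mRNA per cell cannot be told apart. It was 29.4-fold lower in 786-O than in HK2 (log2FC -4.88, SE 0.162, edgeR FDR = 2.36e-17). From 786-O to its metastatic derivative the mRNA rose 21.6-fold (log2FC 4.43, 95% confidence interval 4.07 to 4.79, edgeR FDR = 3.47e-15). Of all genes tested, 0.118% had a larger log2FC in that direction between these 2 lines. The level in 786-M1A stayed below that of HK2 by a log2FC of -0.45 (SE 0.0926, edgeR FDR = 1.41e-04). This last call was lost with limma on median-centred log2 counts, where the value was -0.42 (FDR = 0.107). GENCODE and RefSeq together name 14 pseudogenes of *ASS1* and the table counts 0 of them, so the assignment of reads they share is not known.

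The bases before the start of *ASS1* and of *ARG2* are shown because these were the members whose mRNA differed by more than 4-fold between HK2 and 786-O. Sequences are the 200 bases upstream of the RefSeq start in GRCh38.p14, on the plus strand in both genes. Capitals mark CACGTG, the E-box, in *ASS1* (chr9:130444761-130444960) and TGACGTCA, the cAMP response element, in *ARG2* (chr14:67619720-67619919).
ASS1: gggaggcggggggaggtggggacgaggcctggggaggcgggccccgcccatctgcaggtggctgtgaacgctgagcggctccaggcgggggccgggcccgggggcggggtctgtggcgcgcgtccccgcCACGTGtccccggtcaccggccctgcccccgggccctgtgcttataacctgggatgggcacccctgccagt
ARG2: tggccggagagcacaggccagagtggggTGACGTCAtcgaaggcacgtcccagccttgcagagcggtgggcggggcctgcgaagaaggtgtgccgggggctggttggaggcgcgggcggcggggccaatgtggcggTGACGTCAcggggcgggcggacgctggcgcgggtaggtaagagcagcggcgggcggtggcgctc
The *ASS1* window holds 1 E-box, which begins at position -71 from the start, 18 CpG dinucleotides and 77.5% G and C. Another RefSeq start of *ASS1* lies upstream of the window shown, and its own window (chr9:130444507-130444706) has no E-box and also 18 CpG dinucleotides. *ARG2* has 2 cAMP response elements, at -172 and -64, and 24 CpG dinucleotides. Both strands were searched. Among 35116 windows of the same length before RefSeq starts, 5.49% held CACGTG, 1.57% held TGACGTCA and 40.1% held the GC box GGGCGG, which was present in the windows of all 6 members. Neither of the first 2 motifs was found in the windows of *ASL*, *OAT*, *SLC7A1* or *NAGS*. A match of letters is a description of the window and not a measurement of binding, and neither binding nor methylation was measured in these libraries.

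*ASL* (NCBI gene 435, chromosome 7, 66075800 to 66094697, plus strand), the next enzyme of the route, did not follow *ASS1*. It had 45.0, 49.7 and 44.3 CPM in HK2, 48.7, 46.5 and 44.0 CPM in 786-O and 57.2, 54.6 and 53.3 CPM in 786-M1A. HK2 and 786-O overlapped, and each 786-M1A library was above all others. The means were 46.3 ± 2.98, 46.4 ± 2.39 and 55.0 ± 1.97 CPM (SD, n = 3). Between 786-O and HK2 the log2FC was 0.0018 with a 95% confidence interval of -0.11 to 0.11 (edgeR FDR = 0.975). *ASL* rose 1.19-fold from 786-O to 786-M1A (log2FC 0.25, SE 0.0514, edgeR FDR = 3.57e-04), and 786-M1A was likewise above HK2 by a log2FC of 0.25 (edgeR FDR = 1.50e-04). A protein-coding read-through gene of the annotation overlaps *ASL* on the same strand and is not in the table, so reads from the 2 cannot be told apart.

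*NAGS* (NCBI gene 162417, chromosome 17, 44004622 to 44009068, plus strand) makes the activator of carbamoyl phosphate synthesis. It was measured at low depth, from 43 to 173 counts per library. In HK2 it had 3.51, 3.08 and 3.74 CPM, in 786-O 2.05, 1.70 and 1.51 CPM, and in 786-M1A 1.55, 1.12 and 1.69 CPM. Every HK2 library was above every library of the cancer lines, which overlapped each other. Means were 3.44 ± 0.335, 1.76 ± 0.274 and 1.45 ± 0.297 CPM (SD, n = 3). *NAGS* was 1.96-fold lower in 786-O (log2FC -0.97, SE 0.143, edgeR FDR = 2.20e-06) and 2.37-fold lower in 786-M1A than in HK2 (log2FC -1.25, SE 0.153, edgeR FDR = 1.33e-07). Between the cancer lines the log2FC was -0.28, with an interval of -0.64 to 0.08 (edgeR FDR = 0.180).

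*ARG2* (NCBI gene 384, chromosome 14, 67619920 to 67651708, plus strand) encodes the mitochondrial arginase. It had 28.8, 28.0 and 28.3 CPM in HK2, 5.21, 5.10 and 6.17 CPM in 786-O and 6.50, 6.47 and 6.21 CPM in 786-M1A. HK2 was far above both cancer lines, and these did not overlap, although the highest 786-O library and the lowest 786-M1A library lay side by side. The means were 28.3 ± 0.386, 5.49 ± 0.587 and 6.39 ± 0.157 CPM (SD, n = 3). Relative to HK2 the mRNA fell 5.15-fold in 786-O (log2FC -2.36, SE 0.0693, edgeR FDR = 2.54e-18) and 4.43-fold in 786-M1A (log2FC -2.15, SE 0.0688, edgeR FDR = 1.10e-17). From 786-O to 786-M1A it rose by a log2FC of 0.22 (SE 0.0842, edgeR FDR = 0.0337). That small rise lost its call without 786-O replicate 1 (0.18, FDR = 0.112) or 2 (0.18, FDR = 0.122), without 786-M1A replicate 1 (0.21, FDR = 0.0670) or 2 (0.22, FDR = 0.0670), and when only the 2 lines were fitted (0.22, FDR = 0.0555). *VTI1B* overlaps *ARG2* on the opposite strand with between 845 and 1929 counts per library, and with the strand setting of the counting not given in the sources used here, *ARG2* counts may hold reads of *VTI1B*.

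*OAT* (NCBI gene 4942, chromosome 10, 124397303 to 124418976, minus strand) encodes the mitochondrial enzyme that takes ornithine toward glutamate and proline. Its counts were among the highest of the members, and its differences were small. The HK2 libraries had 163, 171 and 164 CPM, those of 786-O 187, 188 and 189 CPM, and those of 786-M1A 176, 179 and 181 CPM. The lines did not overlap, with HK2 lowest and 786-O highest. Means were 166 ± 4.76, 188 ± 1.03 and 179 ± 2.58 CPM (SD, n = 3). *OAT* was above HK2 by a log2FC of 0.18 in 786-O (SE 0.0353, edgeR FDR = 7.47e-05) and of 0.11 in 786-M1A (SE 0.0354, edgeR FDR = 0.00822), the latter not called with upper-quartile scaling (0.06, FDR = 0.139). The log2FC of -0.07 from 786-O to 786-M1A did not pass the threshold (edgeR FDR = 0.0826), and with limma on median-centred log2 counts it did (-0.09, FDR = 0.0406).

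*SLC7A1* (NCBI gene 6541, chromosome 13, 29509414 to 29595688, minus strand) encodes the arginine carrier CAT-1. It had 157, 137 and 162 CPM in HK2, 234, 235 and 223 CPM in 786-O and 219, 242 and 221 CPM in 786-M1A. All libraries of the cancer lines were above those of HK2, and the cancer lines overlapped. Means were 152 ± 13.2, 231 ± 6.76 and 227 ± 12.7 CPM (SD, n = 3). The carrier was 1.52-fold higher in 786-O (log2FC 0.60, SE 0.0553, edgeR FDR = 2.73e-08) and 1.5-fold higher in 786-M1A than in HK2 (log2FC 0.58, SE 0.0554, edgeR FDR = 4.11e-08). Between 786-M1A and 786-O the log2FC was -0.02, with an interval of -0.14 to 0.10 (edgeR FDR = 0.773).

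**Figure D1:**
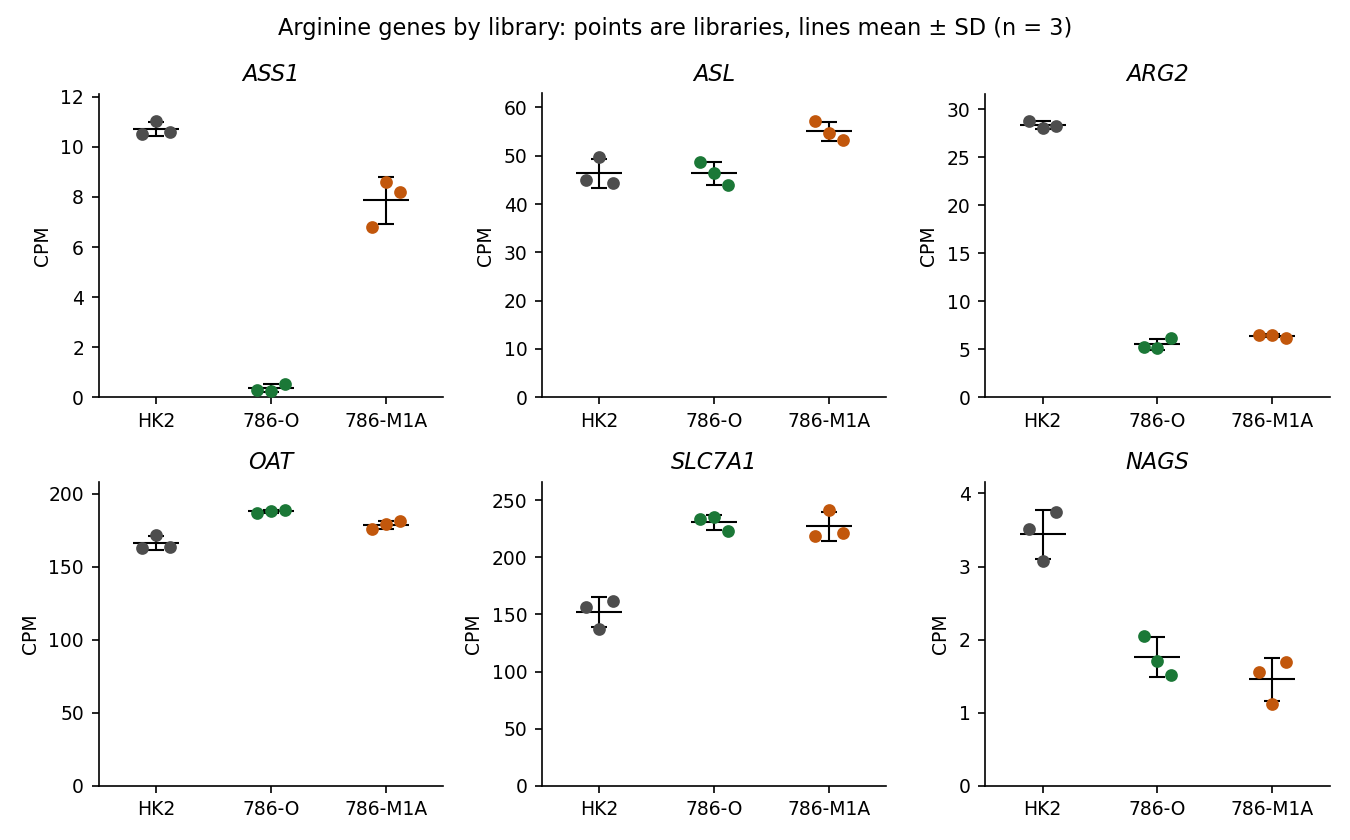
TMM-scaled CPM (vertical axes from 0) of the 6 genes in each library of HK2, 786-O and 786-M1A, with points for libraries and lines for mean ± SD (n = 3). *ASS1* is near 0 in 786-O and at 7.86 CPM on average in 786-M1A, *ARG2* is low in both cancer lines, and *ASL* is highest in 786-M1A.

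Against this, most genes differed between these lines, so the number of members called says little by itself. Between 786-O and HK2, 84.2% of all genes tested passed the threshold (41.6% higher and 42.6% lower in 786-O), and 5 of the 6 members did, 2 higher (*OAT*, *SLC7A1*) and 3 lower (*ASS1*, *ARG2*, *NAGS*). Between 786-M1A and 786-O it was 56% of all genes (27.9% higher and 28% lower in 786-M1A) and 3 of 6 members, all higher (*ASS1*, *ASL*, *ARG2*). Between 786-M1A and HK2 it was 84.9% of all genes (41.6% higher and 43.3% lower), with 6 of 6 members called, 3 higher (*ASL*, *OAT*, *SLC7A1*) and 3 lower (*ASS1*, *ARG2*, *NAGS*). These shares are near those of all genes and are not a result about the members. The median log2FC of the members was -0.48, 0.10 and -0.17 in these 3 comparisons, beside -0.01, 0 and -0.02 over all genes tested. The comparisons share libraries, each line entering 2 of them. In size, *ASS1* and *ARG2* differed from HK2 by more than 2-fold in 786-O, as did *ARG2* and *NAGS* in 786-M1A, and *ASS1* alone of the members differed by more than 2-fold between the cancer lines.

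**Figure D2:**
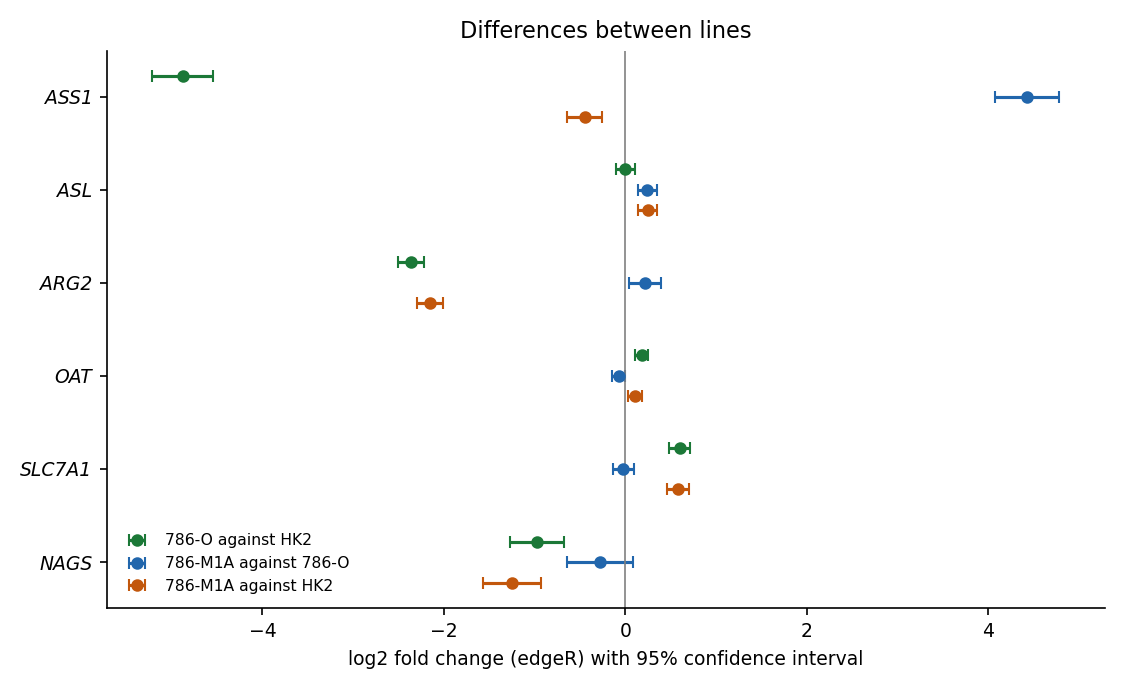
Log2 fold changes of the 6 genes (horizontal axis) with their 95% confidence intervals from edgeR, in colours for the 3 comparisons between lines. *ASS1* stands at -4.88 for 786-O against HK2 and at 4.43 for 786-M1A against 786-O, and the intervals of *SLC7A1* and *NAGS* between the cancer lines span 0.

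Levels of different genes were compared per kilobase of merged exons. In HK2 the order from high to low was *OAT* at 49.0 ± 1.41 CPM per kb (SD, n = 3), *SLC7A1* at 19.8 ± 1.72, *ARG2* at 12.4 ± 0.169, *ASL* at 7.68 ± 0.495, *ASS1* at 3.55 ± 0.0902 and *NAGS* at 1.25 ± 0.122, with no overlap of libraries between neighbours. In 786-O, *OAT* at 55.5 ± 0.304 and *SLC7A1* at 30.0 ± 0.880 CPM per kb were followed by *ASL* at 7.69 ± 0.395, *ARG2* at 2.41 ± 0.257 and *NAGS* at 0.638 ± 0.0997, and *ASS1* was last at 0.119 ± 0.0527, again with no overlap between neighbours. The 786-M1A line had *OAT* at 52.7 ± 0.761, *SLC7A1* at 29.6 ± 1.65, *ASL* at 9.12 ± 0.327, *ARG2* at 2.80 ± 0.0688, *ASS1* at 2.60 ± 0.309 and *NAGS* at 0.529 ± 0.108 CPM per kb. In that line *ARG2* and *ASS1* overlapped, from 2.72 to 2.85 and from 2.26 to 2.84 CPM per kb, and with the longest transcript as the length their order turned (3.35 for *ARG2* and 3.98 for *ASS1*). Among all genes tested, *ASS1* stood at percentile 36.6 of the level per kilobase for HK2, 3.94 for 786-O and 32.5 for 786-M1A. *OAT* stayed between percentile 93.4 and 94.2.

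**Figure D3:**
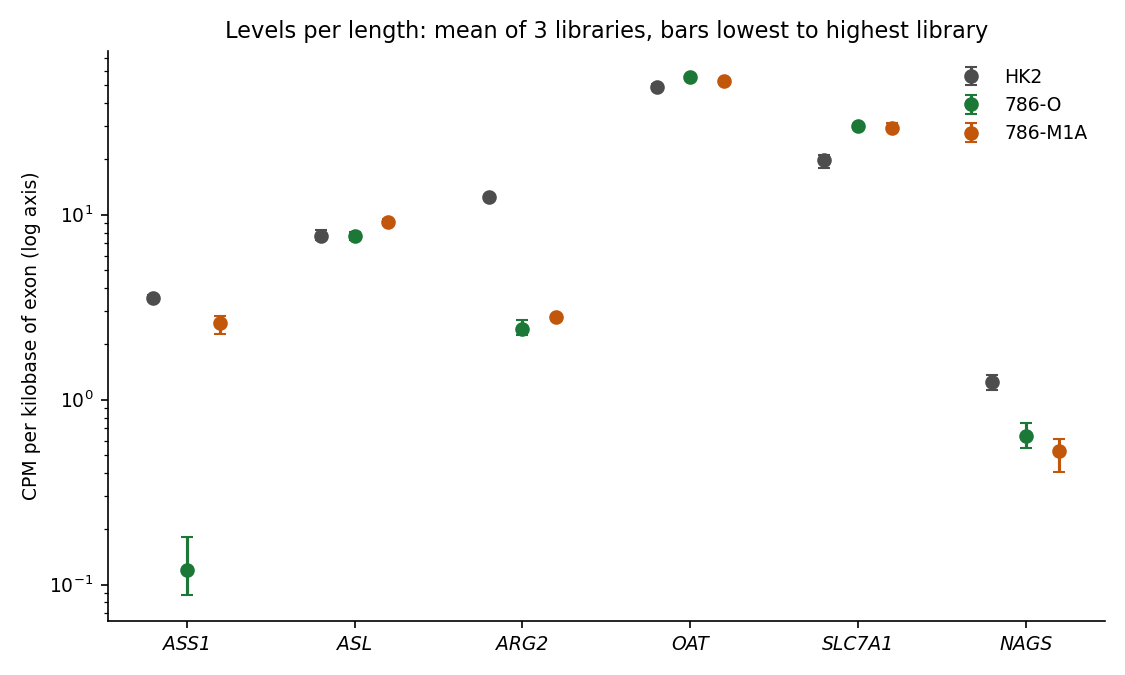
CPM per kilobase of exon (log axis) of the 6 genes, with the mean of 3 libraries per line and bars from the lowest to the highest library. *ASS1* falls from 3.55 in HK2 to 0.119 in 786-O and is at 2.60 in 786-M1A, while *OAT* remains between 49.0 and 55.5.

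Consecutive steps were set against each other within each library. HK2 had 2.16 ± 0.0857 times (SD, n = 3) as much *ASL* as *ASS1* per kilobase, 786-O 72.7 ± 27.9 times and 786-M1A 3.55 ± 0.569 times. For *OAT* over *ARG2* the ratio in HK2 was 3.95 ± 0.161, against 23.2 ± 2.27 for 786-O and 18.9 ± 0.714 for 786-M1A. For each ratio every pair of lines was free of overlap, and the exact two-sided permutation test gave p = 0.1 in all 6 tests, the smallest that 3 libraries against 3 allow. The mRNA for *ASL* was thus in the largest excess over that for *ASS1* in 786-O, and that for *OAT* was in larger excess over *ARG2* in both cancer lines than in HK2.

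The rest of arginine metabolism was followed in 9 lists with 59 genes, of which 47 passed the filter on low counts. Between 786-O and HK2, 21 of the 47 were higher, 23 were lower and 3 did not pass the test, so 93.6% were called beside 84.2% of all genes. From 786-O to 786-M1A, 17 rose, 12 fell and 18 did not pass, which is 61.7% called beside 56%. Between 786-M1A and HK2, 20 were higher, 23 lower and 4 did not pass, or 91.5% called beside 84.9%. Median log2FC values were -0.08, 0.03 and -0.16, beside the medians of all genes given above. Counts within the single lists below stand beside the same shares of all genes called and are not results about a list.

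Of 5 urea cycle genes, 2 were tested. *CPS1*, the enzyme that the product of *NAGS* activates, had 24.6, 22.1 and 23.7 CPM in HK2, 64.1, 65.9 and 70.9 CPM in 786-O and 64.2, 69.4 and 69.3 CPM in 786-M1A. It was above HK2 by a log2FC of 1.52 in 786-O (edgeR FDR = 6.42e-17) and of 1.53 in 786-M1A (edgeR FDR = 5.04e-17), with the cancer lines overlapping, so *CPS1* was higher in the lines where *NAGS* was lower. *SLC25A15*, which carries ornithine into mitochondria, was also above HK2, as read after its values were seen. Its log2FC against HK2 was 0.76 in 786-O (edgeR FDR = 1.58e-11) and 0.60 in 786-M1A (edgeR FDR = 9.97e-10). From 786-O to 786-M1A it fell by 0.16 on the log2 scale (edgeR FDR = 0.0133). The call of that fall was lost without 786-O replicate 2 (-0.14, FDR = 0.0523) or 786-M1A replicate 1 (-0.12, FDR = 0.0653). *OTC*, which makes citrulline from ornithine in the liver and intestine, had 0 counts in all 9 libraries, as had *SLC25A2*, and 0 counts allow up to 3 counts, or 0.0661 to 0.0993 CPM. *ARG1*, the cytosolic arginase, had at most 4 counts in any library, against at least 192 for *ARG2*.

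The second substrate of *ASS1* is aspartate. Among 10 genes of its supply and use, 4 were higher and 5 lower in 786-O than in HK2, 3 rose and 4 fell from 786-O to 786-M1A, and 3 were higher and 5 lower in 786-M1A than in HK2. *SLC1A1*, a carrier for aspartate and glutamate, averaged 3.07 CPM in HK2 against 25.0 and 24.8 CPM in 786-O and 786-M1A, with log2FC values of 3.02 (edgeR FDR = 6.36e-20) and 3.01 (edgeR FDR = 6.91e-20) against HK2. *SLC1A3*, another carrier of both amino acids, moved the other way. It had 8.70, 6.68 and 7.48 CPM in HK2, 4.71, 4.01 and 4.58 CPM in 786-O and 2.02, 2.48 and 2.01 CPM in 786-M1A, without overlap, and it fell by 1.03 on the log2 scale from 786-O to 786-M1A (edgeR FDR = 7.18e-07). *SLC25A13*, which exports aspartate from mitochondria, rose by a log2FC of 0.23 between these lines (edgeR FDR = 1.35e-05). Both cancer lines were below HK2 in *SLC25A13*, as read after its values were seen. The log2FC against HK2 was -0.63 in 786-O (edgeR FDR = 3.95e-13) and -0.40 in 786-M1A (edgeR FDR = 9.04e-10).

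Downstream of *OAT*, 3 of 6 genes of ornithine and proline metabolism were higher and 2 lower in 786-O than in HK2, with the same counts for 786-M1A against HK2, and 2 rose and 1 fell from 786-O to 786-M1A. *PYCR3*, which reduces pyrroline-5-carboxylate to proline, was above HK2 by log2FC values of 0.74 in 786-O (edgeR FDR = 7.33e-11) and 0.82 in 786-M1A (edgeR FDR = 1.03e-11). Proline dehydrogenase (*PRODH*) was lower in 786-O than in HK2 (-0.51, edgeR FDR = 0.00430). *ALDH4A1*, the next enzyme of proline breakdown, was lower in 786-M1A than in HK2 (-0.35, edgeR FDR = 5.01e-05). As read after the values were seen, *ALDH4A1* was also lower in 786-O (-0.44, edgeR FDR = 2.92e-06). *PRODH* was not called in 786-M1A against HK2 (-0.18, edgeR FDR = 0.253). From 786-O to 786-M1A *PYCR1* rose by 0.23 on the log2 scale (edgeR FDR = 1.96e-04).

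All 7 genes of the ornithine to polyamine branch were tested, and 5 were higher and 2 lower in each cancer line than in HK2. *AZIN1*, which protects ornithine decarboxylase from its antizymes, was above HK2 by 0.88 in 786-O (edgeR FDR = 2.77e-15) and 0.90 in 786-M1A (edgeR FDR = 1.43e-15) on the log2 scale. *AMD1*, which supplies decarboxylated S-adenosylmethionine, was below HK2 by log2FC values of -0.43 (edgeR FDR = 2.35e-10) and -0.46 (edgeR FDR = 9.03e-11). Between the cancer lines 3 rose and 2 fell. The antizyme gene *OAZ1* rose by 0.20 (edgeR FDR = 0.00162) while the related *OAZ2* fell by 0.30 on the log2 scale (edgeR FDR = 6.12e-06).

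Among these 47 genes the largest differences of 786-O from HK2 were in the list for creatine and agmatine. *AGMAT*, which encodes a protein of the agmatinase family, had 13.9, 14.9 and 15.1 CPM in HK2. It had 0.113, 0.106 and 0.0236 CPM in 786-O and 0.304, 0.495 and 0.423 CPM in 786-M1A. The lines did not overlap, but the 786-O value rests on 10 counts in all, or 0.0807 CPM with an exact Poisson 95% interval of 0.0387 to 0.148, and that of 786-M1A on 46. Its log2FC was -7.45 for 786-O against HK2 (edgeR FDR = 9.13e-20), 2.30 for 786-M1A against 786-O (edgeR FDR = 8.78e-05) and -5.15 for 786-M1A against HK2 (edgeR FDR = 5.55e-19). *AGMAT* and *ASS1* thus had the same order of the 3 lines.

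*GATM*, which transfers the amidino group of arginine to glycine, is named here after its values were seen. It had from 108 to 167 counts per library in HK2 and from 2 to 6 in the cancer lines, so that HK2 averaged 3.72 ± 0.375 CPM (SD, n = 3), 786-O 0.0789 ± 0.0306 CPM and 786-M1A 0.115 ± 0.0376 CPM. The log2FC against HK2 was -5.48 in 786-O (edgeR FDR = 3.72e-15) and -4.97 in 786-M1A (edgeR FDR = 9.28e-15). *GAMT*, which methylates the product to creatine, was higher than in HK2 by 1.14 in 786-O (edgeR FDR = 1.51e-11) and by 0.62 in 786-M1A (edgeR FDR = 2.21e-07), and fell by 0.52 on the log2 scale between the cancer lines (edgeR FDR = 2.34e-06). Of the 4 genes of this list 1 was higher and 3 were lower in each cancer line than in HK2, and 2 rose and 1 fell from 786-O to 786-M1A.

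Nitric oxide synthases use arginine as well, and none reached the filter. *NOS1* had 0 counts in all libraries, *NOS2* from 21 to 25 counts in HK2 and 0 in every library of the cancer lines, and *NOS3* from 11 to 14 in HK2 and at most 2 elsewhere. The 3 tested genes of the list of 7 were lower in both cancer lines than in HK2, and 2 of them rose from 786-O to 786-M1A. *DDAH2*, of the dimethylarginine dimethylaminohydrolase family, was lower by log2FC values of -1.72 in 786-O (edgeR FDR = 1.17e-12) and -1.48 in 786-M1A (edgeR FDR = 8.07e-12). *DDAH1*, the enzyme of that family that degrades methylarginines, which inhibit these synthases, rose by 0.27 on the log2 scale from 786-O to 786-M1A (edgeR FDR = 1.78e-05).

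Arginine carriers beside *SLC7A1* differed in both directions, and 5 of 9 genes of the list were tested, 2 of them higher and 3 lower in each cancer line than in HK2. *SLC7A2*, which encodes CAT-2, had 14.1, 12.9 and 13.8 CPM in HK2, 8.10, 10.5 and 12.1 CPM in 786-O and 0.249, 0.391 and 0.423 CPM in 786-M1A. It was near 0 in the metastatic line, with 9 to 16 counts per library, and fell by 4.83 on the log2 scale from 786-O to 786-M1A (SE 0.213, edgeR FDR = 1.84e-11), in the direction opposite to *ASS1*. Against HK2 the log2FC was -5.24 (edgeR FDR = 4.83e-13). The smaller difference of 786-O from HK2, named after its values were seen, was -0.41 (edgeR FDR = 0.00226), and this call was lost with limma on median-centred log2 counts (-0.38, FDR = 0.0709).

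Of the light chains that exchange arginine for neutral amino acids, *SLC7A7* had 3.96, 4.40 and 4.24 CPM in HK2, 14.8, 13.7 and 15.0 CPM in 786-O and 12.3, 13.4 and 13.5 CPM in 786-M1A. It was above HK2 by log2FC values of 1.78 in 786-O (edgeR FDR = 3.31e-15) and 1.63 in 786-M1A (edgeR FDR = 2.12e-14). *SLC7A6*, the other light chain, was below HK2 in 786-O by a log2FC of -1.09 (edgeR FDR = 2.41e-15), from a mean of 136 ± 8.92 CPM (SD, n = 3) to 63.6 ± 0.995 CPM. Their common heavy chain *SLC3A2* rose by 0.23 on the log2 scale from 786-O to 786-M1A (edgeR FDR = 3.53e-05). It was also above HK2, as read after its values were seen, by 1.11 in 786-O (edgeR FDR = 1.25e-16) and 1.34 in 786-M1A (edgeR FDR = 3.82e-18). *SLC7A3* and *SLC6A14* had 0 counts in all libraries.

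Per kilobase, the 4 carriers *SLC7A1*, *SLC7A2*, *SLC7A6* and *SLC7A7*, a set put together after their values were seen, had a sum of 40.2 ± 2.82 CPM per kb (SD, n = 3) for HK2, 42.4 ± 0.741 for 786-O and 41.2 ± 2.12 for 786-M1A. *SLC7A1* took 49.1% ± 1.24 of the HK2 sum, 70.8% ± 0.858 of that of 786-O and 71.7% ± 0.402 of that of 786-M1A. *SLC7A6* took 44.6% ± 1.07, 19.8% ± 0.0758 and 22.3% ± 0.196, in the same order of lines. *SLC7A2* accounted for 4.29%, 3.06% and 0.108%, and *SLC7A7* for 1.96%, 6.37% and 5.90%. The sums differed by less than 1 SD of the HK2 libraries, and the make-up went from near equal parts of *SLC7A1* and *SLC7A6* in HK2 to mostly *SLC7A1* in the cancer lines.

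**Figure D4:**
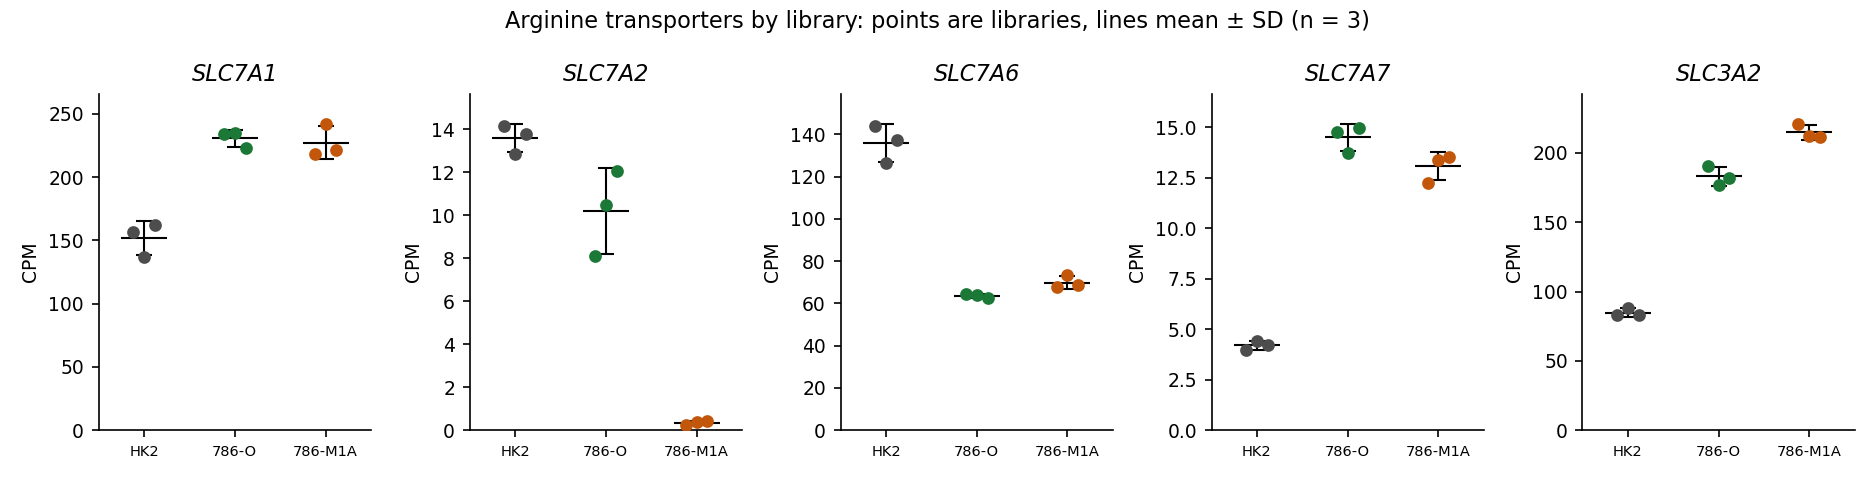
TMM-scaled CPM (vertical axes from 0) of 4 arginine carriers and of the heavy chain *SLC3A2* in each library of the 3 lines, with points for libraries and lines for mean ± SD (n = 3). *SLC7A2* has a mean of 0.354 CPM in 786-M1A against 10.2 CPM in 786-O, and *SLC7A6* is lower and *SLC7A7* and *SLC3A2* are higher in both cancer lines than in HK2.

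Arginine is sensed by CASTOR1 and SLC38A9 upstream of mTORC1, and its shortage by the kinase GCN2. The list of their genes also holds *CASTOR2*, a paralogue of *CASTOR1*. Of these 4 genes 2 were higher and 2 lower in each cancer line than in HK2, and 1 rose from 786-O to 786-M1A. *CASTOR1* was above HK2 by 1.17 in 786-O (edgeR FDR = 2.27e-10) and 1.12 in 786-M1A (edgeR FDR = 5.59e-10) on the log2 scale, from means of 3.54 CPM in HK2 to 8.0 and 7.76 CPM. *CASTOR2* averaged 35.5 CPM in HK2 against 11.8 and 11.4 CPM in 786-O and 786-M1A, with log2FC values of -1.59 (edgeR FDR = 2.78e-13) and -1.64 (edgeR FDR = 1.97e-13). *EIF2AK4*, which encodes GCN2, rose by 0.12 from 786-O to 786-M1A (edgeR FDR = 0.0109). As read after its values were seen, it was above HK2 by 0.81 in 786-O (edgeR FDR = 2.73e-14) and 0.93 in 786-M1A (edgeR FDR = 1.96e-15). *SLC38A9*, also named after its values were seen, had log2FC values against HK2 of -1.34 in 786-O (edgeR FDR = 8.82e-14) and -1.35 in 786-M1A (edgeR FDR = 8.51e-14).

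For the use of arginine in proteins, by arginyl-tRNA synthetases and arginine methyltransferases, 6 of 7 genes were tested. In each cancer line 2 were higher and 3 lower than in HK2, and 2 rose and 1 fell from 786-O to 786-M1A. *CARM1*, a protein arginine methyltransferase, was above HK2 by log2FC values of 1.22 in 786-O (edgeR FDR = 1.96e-16) and 1.34 in 786-M1A (edgeR FDR = 3.05e-17). *PRMT5*, of the same family, was below HK2 in 786-M1A by -0.91 (edgeR FDR = 2.22e-15). As read after its values were seen, it was also below HK2 in 786-O, by -0.94 (edgeR FDR = 1.26e-15). *RARS2*, the mitochondrial arginyl-tRNA synthetase, was below HK2 in 786-O by -0.99 (edgeR FDR = 1.07e-14). In 786-M1A it was below HK2 by -0.87 (edgeR FDR = 9.53e-14), as read after its values were seen. The call of its rise of 0.12 between the cancer lines (edgeR FDR = 0.0387) was lost with upper-quartile factors and with limma on median-centred log2 counts. It was also lost without 786-O replicates 1 or 2 or 786-M1A replicates 1 or 3 in turn. In these fits the value lay between 0.10 and 0.13 and the FDR between 0.0532 and 0.114.

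**Figure D5:**
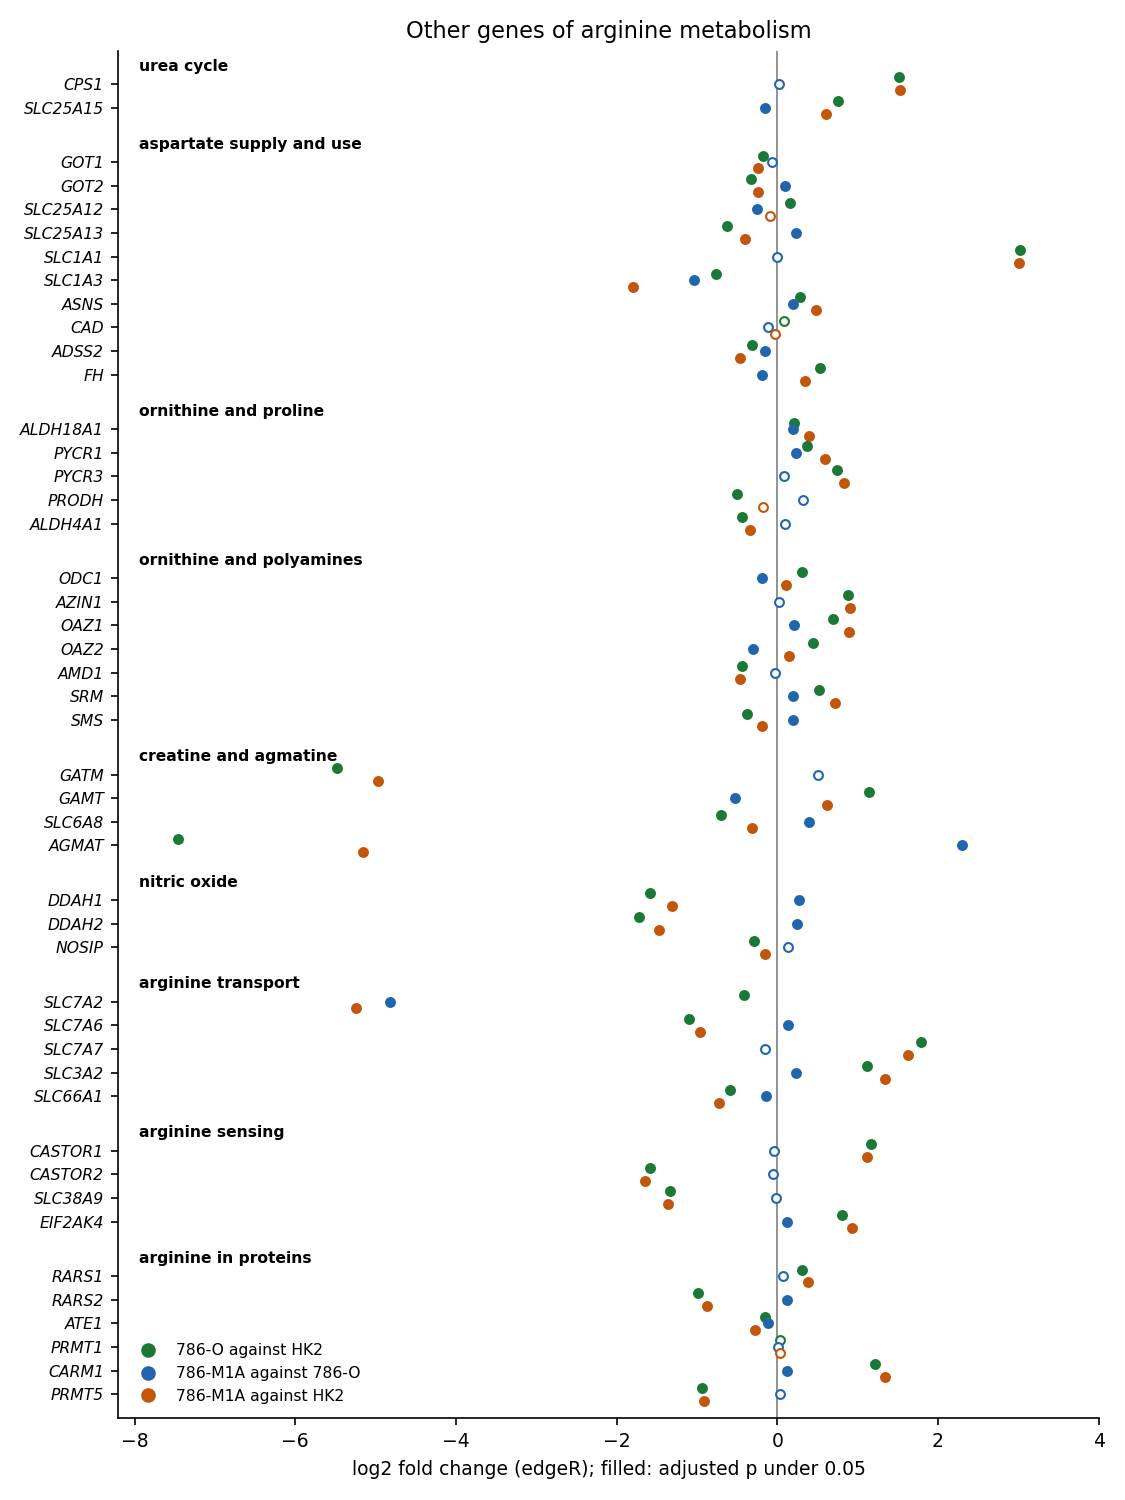
Log2 fold changes (horizontal axis, edgeR) of 46 tested genes of the 9 lists, in colours for the 3 comparisons, filled where the adjusted p-value was under 0.05. *AGMAT* at -7.45 and *GATM* at -5.48 for 786-O against HK2 lie farthest to the left, followed by *SLC7A2* at -5.24 for 786-M1A against HK2, and *SLC1A1* at 3.02 lies farthest to the right.

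Genes with the most similar pattern were found by the root mean square distance of centred log2 CPM over the 9 libraries, among all genes tested, as a description. For *ASS1* they were *DENND2D* (distance 0.366), *ZNF22* (0.436) and *KCNJ5-AS1* (0.503), an antisense RNA whose counts depend on the strand setting. *DENND2D* had means of 15.5, 0.299 and 8.29 CPM in HK2, 786-O and 786-M1A, beside 10.7, 0.360 and 7.86 CPM for *ASS1*. The nearest genes were *RGS5* (0.0786), *PRKCH* and *CCN1* for *ARG2*, *RRN3P3* (0.0378), *RPL3* and *SURF6* for *ASL*, *AIMP1* (0.0123), *ZWINT* and *VOPP1* for *OAT*, *PCNX3* (0.0311), *SUPT20H* and *FCHSD2* for *SLC7A1*, and *CLBA1* (0.129), *SEMA6C* and *ARHGAP39* for *NAGS*. Distances grow with the size of a gene's differences and with its counting error, so they rank genes within a member and not between members, and the 9 libraries are 3 lines with 3 libraries each.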

How the data were processed

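RNA of 3 lines, 3 libraries each, was measured by TruSeq Stranded mRNA sequencing on a NextSeq. The authors deposited raw counts per NCBI gene, made with featureCounts of Rsubread on hg38 (GRCh38). The version, annotation and strand setting are not given in the sources used here. Groups came from the labels. Symbols from RefSeq matched 27745 of 28395 identifiers, and positions and exon lengths came from GENCODE on GRCh38.

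The counts were scaled with TMM and tested with edgeR 4.0.16 (R 4.3.3, robust quasi-likelihood, 9 libraries in a single fit) where the mean was at least 50 counts, as in the study's filter, with Benjamini-Hochberg adjustment over 12695 genes. The biological coefficient of variation was 3.93%, and totals of 30212291 to 45362428 counts set the floor of 3 counts. Replicates come from separate dishes of a line, so p-values measure the spread between dishes. No pair of libraries was identical. The study's own fit used VSN and limma. Alternatives were RLE and upper-quartile factors, DESeq2 1.42.0, limma 3.58.1 by voom or on median-centred log2 counts with 0 set to 0.5, other filters, a fit of 2 lines at a time, a block for the replicate number, and each library left out. The fit was tested on simulated data. Python 3.11.15 was used for the rest, with windows from RefSeq GRCh38.p14.

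Members and lists were chosen with earlier results of these data known. Named were the members, the gene with the largest change in each direction per list and comparison among those past the threshold with no overlap of libraries, the 3 genes nearest to each member, and genes of a list whose libraries were all at or under 3 counts. Genes outside this rule are the markers, and genes given by their counts alone (*ARG1*, *NOS2*, *NOS3*) or said to be named after their values were seen. The result of 1 gene within the rule is not reported here.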

Additional observations from a re-analysis of the deposited data

How the results depend on the processing

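Over 69 results of single genes, 987 of 1021 alternative fits kept direction and side of the threshold, 24 lost the call, 1 gained it and 9 turned a direction. The turns were in differences near 0 that were not called. *ASL* between 786-O and HK2 was -0.0029 with RLE factors, -0.040 with upper-quartile factors, -0.0029 with DESeq2 and -0.012 under a filter of 10 counts per library, and from -0.039 to 0.049 with a library left out. *SLC7A1* between 786-M1A and 786-O was from -0.059 to 0.012 with a library left out. Members called numbered 5 for 786-O against HK2 throughout, 2 to 4 for 786-M1A against 786-O and 5 to 6 for 786-M1A against HK2. The log2 fold change of *ASS1* between 786-M1A and 786-O ran from 4.25 to 4.86 with a library left out, and between 786-O and HK2 from -5.30 to -4.69. In fits with a replicate block, 5, 3 and 6 members and 44, 29 and 43 genes of the lists were called, as without it, and 10688, 7157 and 10797 of all genes. Same-numbered libraries had correlations of their deviations between -0.167 and 0.215. Those of 786-M1A with 786-O were all positive (0.215, 0.074 and 0.11), and those with HK2 lay between -0.167 and 0.0376. Libraries with different numbers were not compared, so these values cannot decide whether the numbers pair the libraries. With the longest transcript as length, levels per kb in HK2, 786-O and 786-M1A were 5.43, 0.182 and 3.98 for *ASS1*, 13.2, 13.2 and 15.6 for *ASL*, 14.8, 2.87 and 3.35 for *ARG2*, 81.4, 92.2 and 87.6 for *OAT*, 1.63, 0.830 and 0.688 for *NAGS*, and 31.4 for *SLC7A1* in 786-O. Log2 ratios per kb became -1.27 for *ASS1* to *ASL* in HK2, and -2.46, -5.01 and -4.71 for *ARG2* to *OAT* in the 3 lines, because the lengths alone change. Ranked by Pearson correlation, 0 of the 3 nearest genes were shared for *ASS1*, *ARG2* and *NAGS*, 1 for *OAT* and for *SLC7A1* and 2 for *ASL*. The lowest depths were 10 to 23 counts for *ASS1* in 786-O and 43 for *NAGS*, and groups of 3 libraries cannot show whether a library stands apart.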
